A study of Homo sapiens with 12 samples.

Results

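The 54 genes described here act in mitosis and in G2, the phase before it, and were taken by symbol from a table of TPM (length-scaled transcript abundance, each library with the same total) for 20307 Ensembl gene identifiers. All 54 were found, and all 54 were among the 13645 genes with at least 1 TPM in at least 2 libraries. They comprise 8 cyclins and CDK partners, 8 mitotic kinases and passenger-complex subunits, 7 checkpoint and anaphase genes, 8 kinesins, 7 centromere and kinetochore genes, 12 spindle and cytokinesis genes, 2 chromosome and proliferation marks and 2 transcription factors. Messenger RNA had been sequenced from the established liver cancer lines Hep3B and Huh7, in 6 groups of 2 libraries named A1 and B1. The Hep3B groups were lenvatinib at 20 µM, WWL70 at 20 µM, WWL70 at 20 µM plus lenvatinib whose dose is not labelled (called the combination here), and a control. The Huh7 groups were a lenvatinib-resistant derivative and a control. Lenvatinib is a multikinase inhibitor aimed at growth factor receptors such as those for VEGF, and WWL70 inhibits ABHD6, a serine hydrolase of lipid metabolism. The labels give no exposure time, do not say whether resistant cells were kept in drug or came from 1 clone, and do not say whether A1 and B1 were separate cultures, so the p-values measure only the spread between these libraries, which may be technical.

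Entry into mitosis is driven by CDK1 bound to a B-type cyclin, which CDC25 phosphatases switch on and which Polo and Aurora kinases act beside. Kinesins and kinetochore proteins then attach and align the chromosomes, the spindle checkpoint holds back the anaphase-promoting complex until attachment is complete, and that complex has cyclin B and securin destroyed. Most of these genes are transcribed late in the cycle from promoters that carry a CHR element (cell cycle genes homology region) close to the start and CCAAT boxes upstream, bound by NF-Y and by the MuvB core, which represses them within DREAM and activates them with B-MYB (MYBL2) and FOXM1.

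The RefSeq table of promoter windows (GRCh38, 250 bases before to 50 after each annotated start) held 46 of the 54 genes in 56 windows. AURKA, PBK, BIRC5, TTK, UBE2C, TPX2, RACGAP1 and FOXM1 had no window there. The CHR was searched on both strands as the letters TTTGAA and, as known variants, as TTTAAA, further as TTCGAA and further as CTTGAA, and CCAAT was searched likewise. The variants TTTAAA and also TTCGAA read the same on either strand, and matches of different spellings may overlap. At least 1 of the CHR spellings lay in the last 100 bases of the window for 38 of the 46 genes, and in 71.4% of their windows against 10.9% of all 35116 windows. TTTGAA alone lay there in 53.6% of the genes' windows and in 4.62% of all windows. CCAAT was found anywhere in 76.8% of the genes' windows and in 34.6% of all windows. A CHR spelling near the start together with 2 or more CCAAT before it occurred in 23 of the 46 genes, and in 41.1% of their windows against 1.15% of all windows. The 8 genes with no CHR spelling in the last 100 bases were AURKB, CDC20, CENPE, CKAP2, KIF23, MYBL2, NEK2 and SPC24. A match is a description of these letters and does not show a bound site.

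**Figure D1:**
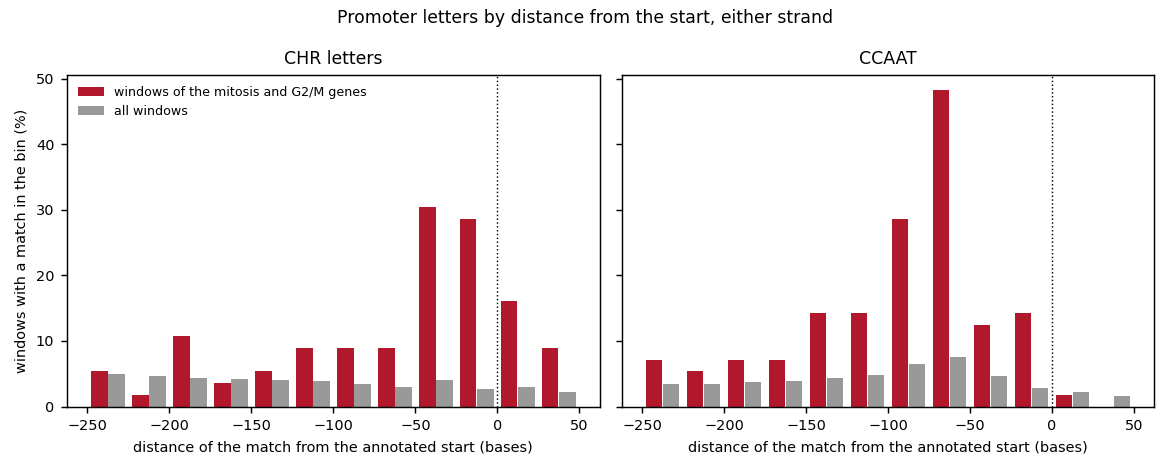
Share of RefSeq promoter windows, in percent, with a match in each bin of distance from the annotated start in bases, for CHR spellings on the left and CCAAT on the right, both strands counted. Red bars are the 56 windows of the mitosis and G2/M genes and grey bars all 35116 windows. The red CHR bars are highest just before the start and the red CCAAT bars further upstream, while the grey bars stay low throughout.

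The following 9 stretches, 130 bases before to 19 after the start on the gene's own strand, are shown because their genes carry the results below, with CHR spellings and CCAAT in capitals (ATTGG is CCAAT read on the other strand, TTCAAA is likewise TTTGAA, and TTCAAG is likewise CTTGAA). They are CCNB1 (chr5:69167020-69167169, + strand), CCNB2 (chr15:59105016-59105165, + strand), PLK1 (chr16:23678759-23678908, + strand), KIF20A (chr5:138178982-138179131, + strand), CKS2 (chr9:89311065-89311214, + strand), TOP2A (chr17:40417877-40418026, - strand), SPC25 (chr2:168890411-168890560, - strand), SPC24 (chr19:11155763-11155912, - strand) and MYBL2 (chr20:43666984-43667133, + strand). The first 7 have a CHR spelling near the start, SPC24 has CCAAT without one, and MYBL2 has neither in its whole window.
CCNB1: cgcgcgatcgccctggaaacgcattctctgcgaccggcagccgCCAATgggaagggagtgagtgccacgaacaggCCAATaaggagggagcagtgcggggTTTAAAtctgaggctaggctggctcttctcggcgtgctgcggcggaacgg
CCNB2: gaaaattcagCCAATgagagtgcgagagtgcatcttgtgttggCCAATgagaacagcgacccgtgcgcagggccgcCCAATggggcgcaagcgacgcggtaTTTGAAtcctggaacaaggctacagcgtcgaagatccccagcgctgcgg
PLK1: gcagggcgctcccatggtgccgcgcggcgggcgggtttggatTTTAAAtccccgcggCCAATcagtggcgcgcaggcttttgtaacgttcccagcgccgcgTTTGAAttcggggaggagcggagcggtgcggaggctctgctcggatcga
KIF20A: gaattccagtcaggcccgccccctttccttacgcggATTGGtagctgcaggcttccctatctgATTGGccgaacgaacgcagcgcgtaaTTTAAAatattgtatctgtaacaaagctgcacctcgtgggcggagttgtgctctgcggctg
CKS2: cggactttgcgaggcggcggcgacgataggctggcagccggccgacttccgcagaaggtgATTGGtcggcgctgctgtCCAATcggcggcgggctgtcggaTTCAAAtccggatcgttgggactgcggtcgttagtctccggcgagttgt
TOP2A: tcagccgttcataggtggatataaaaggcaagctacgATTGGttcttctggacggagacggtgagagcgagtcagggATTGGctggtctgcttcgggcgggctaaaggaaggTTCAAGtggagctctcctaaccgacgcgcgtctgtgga
SPC25: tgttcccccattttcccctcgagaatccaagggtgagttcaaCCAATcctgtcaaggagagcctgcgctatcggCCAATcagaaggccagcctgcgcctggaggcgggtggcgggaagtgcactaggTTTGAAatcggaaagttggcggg
SPC24: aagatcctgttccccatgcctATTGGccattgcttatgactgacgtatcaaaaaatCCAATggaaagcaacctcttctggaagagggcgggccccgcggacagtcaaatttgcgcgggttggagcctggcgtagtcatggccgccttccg
MYBL2: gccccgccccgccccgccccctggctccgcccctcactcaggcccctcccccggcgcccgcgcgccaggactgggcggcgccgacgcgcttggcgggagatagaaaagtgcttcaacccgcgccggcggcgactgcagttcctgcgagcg

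Between 14602 and 15474 identifiers were above 0 TPM in each library, and TPM does not record sequencing depth, which is unknown. The hepatocyte markers were present in every library, with ALB at 10323 TPM or more. The 8 hepatocyte markers summed to between 37420 and 37778 TPM with lenvatinib and between 51055 and 53737 TPM with the combination, against 18537 to 19350 TPM in Hep3B controls. In Huh7 the same sum ran from 51978 to 59048 TPM in resistant cells, against 33107 to 34365 TPM in controls. CD3E was at 0 in 10 of the 12 libraries, VWF and CDH5 in 9 and DCN in 7, and PTPRC stayed at or below 0.518 TPM. CD68 and LYZ, also on the immune list, were detected throughout, and the 4 immune genes summed to 43.7 to 76 TPM with the combination, against 124 to 146 TPM in Hep3B controls, and to 96 to 101 TPM in resistant Huh7, against 527 to 555 TPM in Huh7 controls. The 4 fibroblast genes (COL1A1, COL3A1, DCN, LUM) summed to 7.32 to 10.9 TPM with lenvatinib and 4.81 to 9.96 TPM with the combination, against 9.51 to 11 TPM in Hep3B controls, and to 20.1 to 25.7 TPM in resistant Huh7, against 1.96 to 2.16 TPM in Huh7 controls. The 3 endothelial genes (PECAM1, VWF, CDH5) summed to 0.222 to 0.463 TPM with lenvatinib and 0.039 to 0.524 TPM with the combination, against 0.839 to 1.04 TPM in Hep3B controls, and to 6.39 to 8.34 TPM in resistant Huh7, against 11.5 to 11.9 TPM in Huh7 controls. Across the 12 libraries COL3A1 and LUM each reached 10.4 TPM, COL1A1 7.87 TPM and PECAM1 11.9 TPM, so neither list was absent. The part of these marker levels in the results below was not tested. The A1 library of the combination stood apart, with a median of 2.96 TPM over all identifiers where B1 had 6.32 TPM, and with 12.4% of its TPM in ribosomal protein genes where B1 had 6.05%. Among the members, NUSAP1 and PRC1 share 62.2% and 57.6% of their annotated exon bases with another gene model on the same strand, so their values are uncertain.

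The mitosis and G2/M genes were lowest as a set under the combination, lower under lenvatinib alone and in resistant Huh7, and near their control level under WWL70. Their summed level was 3089 and 3312 TPM with lenvatinib, 4816 and 4928 TPM with WWL70 and 1704 and 2472 TPM with the combination, against 5119 and 5075 TPM in Hep3B controls. In Huh7 it was 3721 and 3888 TPM in resistant cells, against 6719 and 6414 TPM in controls. No library of the lenvatinib, combination or resistant groups reached its line's controls in this sum, whereas WWL70 libraries lay slightly under theirs. In bulk libraries, fewer dividing cells and less of each mRNA per cell cannot be told apart. TPM values are shares of a whole: when the scaling left out the 50 genes of highest level and those of the mitochondrial genome, the median member log2 change was -0.65 under lenvatinib, -1.39 under the combination and -0.88 in resistant Huh7.

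**Figure D2:**
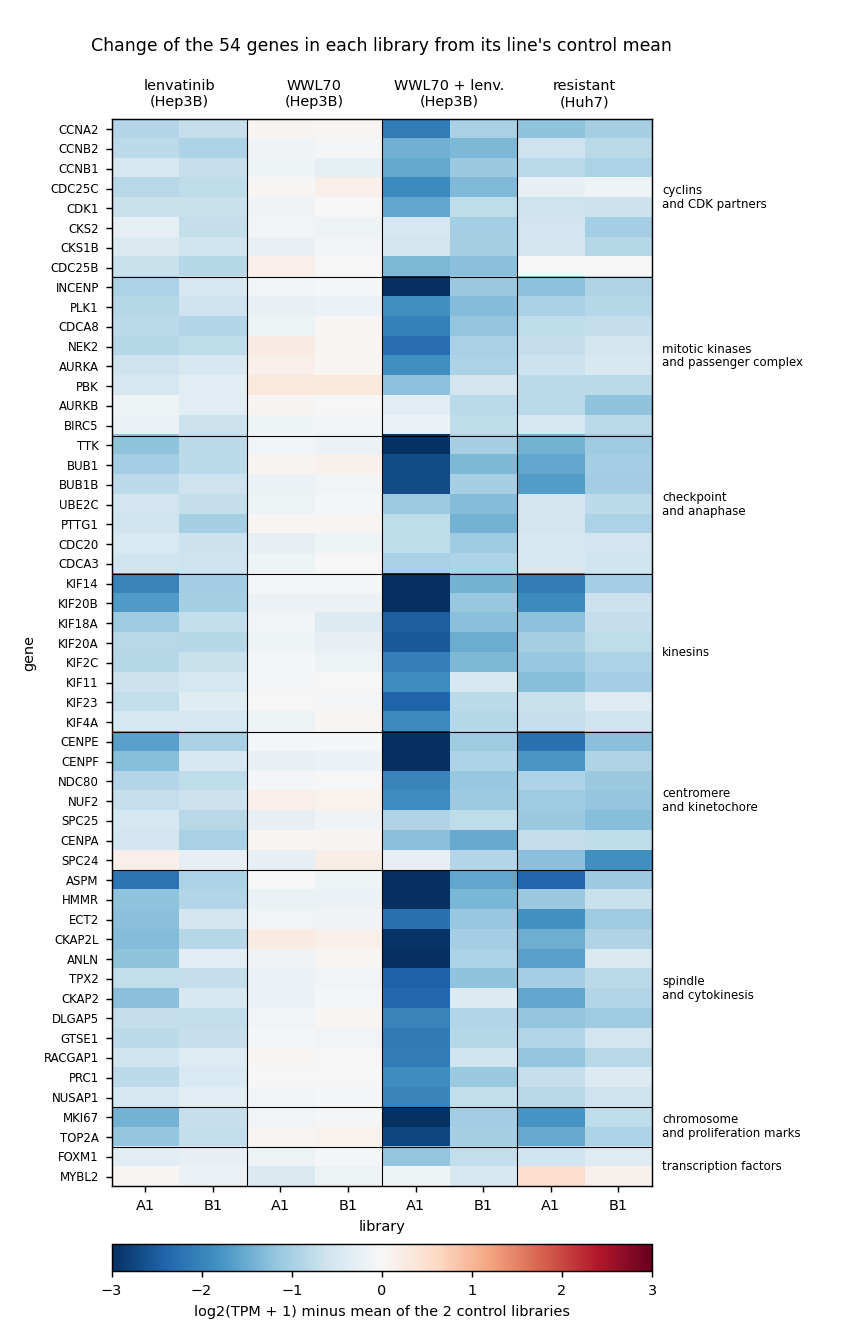
Change of each of the 54 genes (down the page, by role) in each library of 4 groups, as log2(TPM + 1) minus the mean of the 2 control libraries of the same line. Colours end at 3 in either direction, so the most negative values share 1 shade. Nearly all cells of the lenvatinib, combination and resistant groups are blue, the combination A1 library is the darkest, and the WWL70 cells are close to white.

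In limma on log2(TPM + 1), fitted over all 13645 genes with Benjamini-Hochberg adjustment and a threshold of 0.05, 2 of the 54 fell with lenvatinib, where 1.1% of all tested genes fell. With the combination 39 of 54 fell against the control, where 6.41% of all tested genes fell, and in resistant cells 19 of 54 fell, where 6.63% did. None rose, where 1.38% of all tested genes rose under lenvatinib, 2.44% under the combination and 12.3% in resistant Huh7. The median member log2 fold change was -0.74 with lenvatinib beside -0.07 for all tested genes, -1.49 with the combination beside -0.34, and -0.92 in resistant cells beside -0.06. For the combination the median change from control over all tested genes was -0.58 in A1 and -0.08 in B1. MYBL2, at -0.30, was the 1 member that did not lie below -0.34. Both libraries lay below both controls for 52 of 54 genes with lenvatinib (34.8% of all tested genes did), for 54 of 54 with the combination (40.5%) and for 52 of 54 in resistant cells (36.7%). With lenvatinib, 28 of the 54 were lower at an unadjusted limma p under 0.05, and 2 passed after the adjustment over all genes. Of all 13645 tested genes, 1824 had such an unadjusted p in either direction. The spread is shared over all groups, and the counts moved with the libraries in the fit. Without either combination library, 40 genes fell with lenvatinib and 50 in resistant cells, where 6.42% and 19.9% to 20% of all tested genes fell. The combination count was 6 or 7 without a Hep3B control library, where 1.02% or 1.04% of all tested genes fell, and 23 without a WWL70 or a Huh7 control library, where 3.29% to 3.51% did. It was 40 without combination A1 and 49 without combination B1, where 5.95% and 49.7% of all tested genes fell. The resistant count was 2 without a Huh7 control library (1.78% to 1.91% of all tested genes fell), 4 or 6 without 1 of its own (2.48% to 3.25%), and 10 or 11 without a Hep3B control or WWL70 library (4.48% to 4.71%). The lenvatinib count was 0 without a library of its own, of the Hep3B controls or of the Huh7 controls and 1 without a WWL70 or a resistant library, where 0.0734% to 0.797% of all tested genes fell. CCNB1, CCNB2, CDC25B, CDC25C, PLK1 and UBE2C fell with the combination, and SPC25 in resistant cells, in each of the 12 fits that left out 1 library, whereas the lenvatinib calls of CCNB2 and CDC25B stood in 6 and 2 of them.

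**Figure D3:**
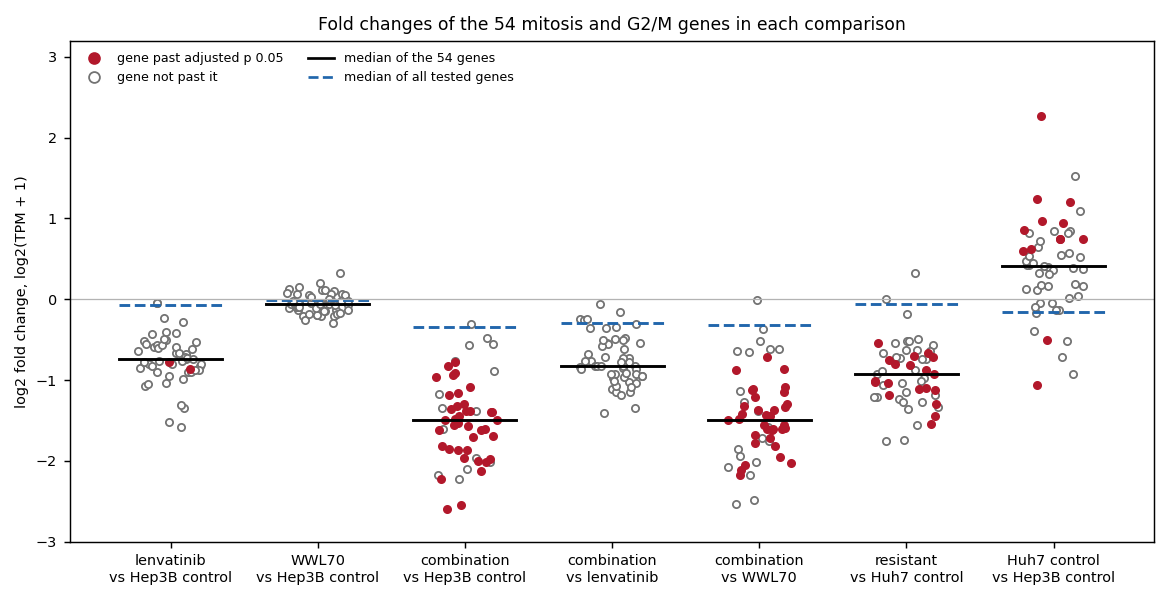
Log2 fold changes of log2(TPM + 1) for the 54 genes in 7 comparisons, 1 point a gene, filled where the limma adjusted p was under 0.05. Solid bars are the members' medians and dashed bars the medians of all 13645 tested genes. The combination points centre at -1.49 and the resistant points at -0.92, well under the dashed bars, and the WWL70 points centre near their dashed bar.

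Of the 8 cyclins and CDK partners, 7 fell with the combination, 2 with lenvatinib and 5 in resistant cells. CCNB2, a B-type cyclin (ENSG00000157456, chr15:59105078-59125045, + strand), had 87.5 and 78.9 TPM with lenvatinib, 140 and 148 TPM with WWL70 and 55 and 59 TPM with the combination, against 153 and 150 TPM in Hep3B controls, A1 before B1 here and throughout. It was lowest in both combination libraries and intermediate in both lenvatinib libraries, with no overlap between these groups and the control. CCNB2 fell with the combination (log2 fold change -1.39 ± 0.14 (SE), limma adjusted p = 0.00109) and with lenvatinib (log2 fold change -0.86 ± 0.14 (SE), limma adjusted p = 0.0208). It had 69.6 and 60.4 TPM in resistant Huh7 cells, against 110 and 104 TPM in Huh7 controls, also without overlap (log2 fold change -0.71 ± 0.14 (SE), limma adjusted p = 0.00862).

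CCNB1, the main mitotic cyclin (ENSG00000134057, chr5:69167010-69178245, + strand), had 134 and 116 TPM with lenvatinib, 171 and 155 TPM with WWL70 and 64.1 and 86.9 TPM with the combination, against 187 and 189 TPM in Hep3B controls. Both combination libraries were under every other Hep3B library. CCNB1 fell with the combination (log2 fold change -1.32 ± 0.18 (SE), limma adjusted p = 0.00367), while with lenvatinib the adjusted p was 0.159 by limma. CCNB1 had 168 and 149 TPM in resistant Huh7 cells, against 307 and 274 TPM in Huh7 controls, and fell there (log2 fold change -0.87 ± 0.18 (SE), limma adjusted p = 0.00917). CCNA2, a cyclin of S phase and G2, had 53.6 and 61.5 TPM with lenvatinib, 105 and 102 TPM with WWL70 and 22.6 and 49.7 TPM with the combination, against 97.7 and 101 TPM in Hep3B controls. The combination A1 library was the lowest by far, and B1 lay just under the lenvatinib libraries. CCNA2 fell with the combination (log2 fold change -1.53 ± 0.30 (SE), limma adjusted p = 0.0184), and it fell in resistant cells, which had 56.3 and 65 TPM against 132 and 129 TPM in Huh7 controls (log2 fold change -1.10 ± 0.30 (SE), limma adjusted p = 0.0334).

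CDK1, the kinase partner of these cyclins (ENSG00000170312, chr10:60778331-60794852, + strand), had 56.1 and 56.7 TPM with lenvatinib, 84.2 and 91.6 TPM with WWL70 and 29.9 and 52.8 TPM with the combination, against 90.3 and 89.8 TPM in Hep3B controls. The combination B1 library was close to the lenvatinib libraries and A1 was the lower of the pair. CDK1 fell with the combination (log2 fold change -1.16 ± 0.23 (SE), limma adjusted p = 0.0201). It had 86.4 and 84.3 TPM in resistant Huh7 cells, against 138 and 128 TPM in Huh7 controls, with an adjusted p of 0.0968 by limma. CKS1B, a small CDK-binding subunit, had 234 and 210 TPM with lenvatinib, 272 and 302 TPM with WWL70 and 218 and 158 TPM with the combination, against 327 and 309 TPM in Hep3B controls. The A1 library of the combination lay within the lenvatinib values and B1 lay under them. CKS1B fell with the combination (log2 fold change -0.77 ± 0.18 (SE), limma adjusted p = 0.0349) and in resistant cells, at 328 and 266 TPM against 481 and 481 TPM in Huh7 controls (log2 fold change -0.70 ± 0.18 (SE), limma adjusted p = 0.0275). Its paralogue CKS2 had 140 and 105 TPM with lenvatinib, 162 and 154 TPM with WWL70 and 121 and 84.8 TPM with the combination, against 174 and 171 TPM in Hep3B controls. All 4 libraries with lenvatinib in them were below control, yet the combination did not pass the threshold (log2 fold change -0.76 ± 0.23 (SE), limma adjusted p = 0.0703). CKS2 fell in resistant cells, at 131 and 96.2 TPM against 210 and 185 TPM in Huh7 controls (log2 fold change -0.81 ± 0.23 (SE), limma adjusted p = 0.0376).

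The CDC25 phosphatases among the members, CDC25B and CDC25C, both fell with the combination in Hep3B, and neither passed the threshold in resistant Huh7. These enzymes activate CDK1. Their relative CDC25A is not a member and is named here after its values were seen. CDC25A fell in resistant Huh7, at 19.2 and 25.4 TPM against 65.7 and 67.1 TPM in Huh7 controls (log2 fold change -1.55 ± 0.29 (SE), limma adjusted p = 0.00659). CDC25B (ENSG00000101224, chr20:3786772-3806121, + strand) had 40.8 and 35.8 TPM with lenvatinib, 72.7 and 65.4 TPM with WWL70 and 25.2 and 26.9 TPM with the combination, against 62.8 and 68.9 TPM in Hep3B controls. A1 and B1 were near each other in every group, and the combination libraries were the lowest. CDC25B fell with lenvatinib (log2 fold change -0.77 ± 0.15 (SE), limma adjusted p = 0.036) and with the combination (log2 fold change -1.30 ± 0.15 (SE), limma adjusted p = 0.00197). It had 87.6 and 86 TPM in resistant Huh7 cells, against 87.1 and 87 TPM in Huh7 controls, groups that overlapped, with a 95% interval of the log2 fold change of -0.35 to 0.34. CDC25C (ENSG00000158402, chr5:138285265-138338355, - strand) had 21.9 and 23.1 TPM with lenvatinib, 41.1 and 44.9 TPM with WWL70 and 9.83 and 15.3 TPM with the combination, against 39.4 and 40.6 TPM in Hep3B controls. The combination libraries were again the lowest. CDC25C fell with the combination (log2 fold change -1.62 ± 0.22 (SE), limma adjusted p = 0.00352), and both lenvatinib libraries were below control with an adjusted p of 0.114 by limma. CDC25C had 37 and 40 TPM in resistant Huh7 cells, against 46.9 and 40.7 TPM in Huh7 controls, with an interval of -0.67 to 0.31. The difference between the resistance effect and the lenvatinib effect was 0.76 for CDC25B (limma adjusted p = 0.0758) and 0.62 for CDC25C (adjusted p = 0.348), so neither difference passed the threshold.

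**Figure D4:**
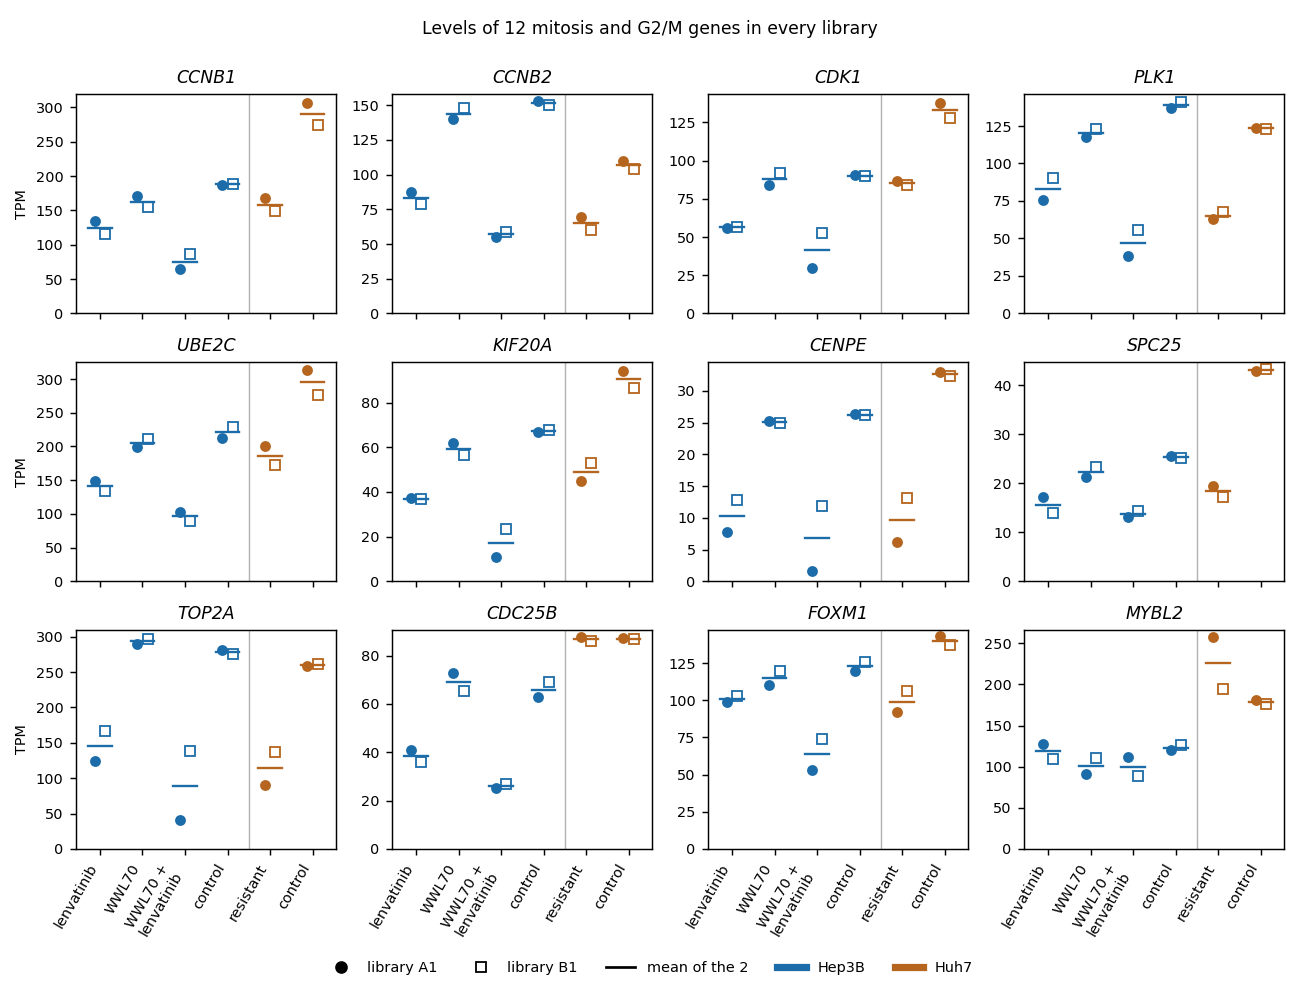
TPM of 12 genes in every library (filled circles A1, open squares B1, bars the mean of the 2), Hep3B groups in blue on the left and Huh7 groups in brown on the right of each panel. CCNB2 and CDC25B show tight pairs with the combination lowest, CENPE and TOP2A show an A1 library far under B1 in the combination, and MYBL2 and CDC25B are not lower in resistant cells.

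Among mitotic kinases and the chromosomal passenger complex, 5 of 8 fell with the combination and 3 in resistant cells, and none passed the threshold with lenvatinib. PLK1, the Polo kinase of mitotic entry and the spindle (ENSG00000166851, chr16:23677656-23690367, + strand), had 75.8 and 90.2 TPM with lenvatinib, 118 and 123 TPM with WWL70 and 38.2 and 55.5 TPM with the combination, against 137 and 141 TPM in Hep3B controls. The order of groups was the same in A1 and in B1, with the combination lowest and the control highest. PLK1 fell with the combination (log2 fold change -1.57 ± 0.19 (SE), limma adjusted p = 0.00243). Its level was 62.9 and 67.4 TPM in resistant Huh7 cells, against 124 and 123 TPM in Huh7 controls, and it fell there too (log2 fold change -0.92 ± 0.19 (SE), limma adjusted p = 0.00965). AURKA, the centrosomal Aurora kinase, had 56.3 and 62.9 TPM with lenvatinib, 97.7 and 91.1 TPM with WWL70 and 23.6 and 45 TPM with the combination, against 91.3 and 83.9 TPM in Hep3B controls. AURKA fell with the combination (log2 fold change -1.40 ± 0.26 (SE), limma adjusted p = 0.0145) and had 108 and 121 TPM in resistant Huh7 cells, against 177 and 162 TPM in Huh7 controls, which did not pass (limma adjusted p = 0.174).

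AURKB, the Aurora kinase of the passenger complex (ENSG00000178999, chr17:8204733-8210600, - strand), had 100 and 88.4 TPM with lenvatinib, 117 and 110 TPM with WWL70 and 87.7 and 62.1 TPM with the combination, against 112 and 108 TPM in Hep3B controls. The A1 library of the combination was level with the lenvatinib B1 library, and the combination did not pass (log2 fold change -0.57 ± 0.20 (SE), limma adjusted p = 0.103). It had 114 and 86.3 TPM in resistant Huh7 cells, against 200 and 202 TPM in Huh7 controls, a gap wider than that within either pair, and it fell (log2 fold change -1.01 ± 0.20 (SE), limma adjusted p = 0.00806). Of the other passenger-complex subunits, INCENP averaged 17.9 ± 16.1 TPM with the combination, against 64.4 ± 4.45 TPM in Hep3B controls (SD, n = 2 each) and fell (limma adjusted p = 0.0391), with 6.49 TPM in A1 and 29.3 TPM in B1. CDCA8 (borealin) averaged 16.6 ± 6.98 TPM with the combination, against 50.3 ± 2.53 TPM in Hep3B controls (SD, n = 2 each) and fell (limma adjusted p = 0.00721). BIRC5 (survivin) had a log2 fold change of -0.48 with the combination and did not pass (limma adjusted p = 0.184). The centrosome kinase NEK2 averaged 33.5 ± 20.7 TPM with the combination, against 95.6 ± 11.8 TPM in Hep3B controls and fell there (limma adjusted p = 0.026). PBK, a mitotic MAPKK-like kinase, fell in resistant cells only narrowly past the threshold, at 38.3 and 37.9 TPM against 68.3 and 66.2 TPM in Huh7 controls (log2 fold change -0.80 ± 0.24 (SE), limma adjusted p = 0.0498).

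All 7 checkpoint and anaphase genes fell with the combination, and 3 fell in resistant cells. UBE2C, the ubiquitin-conjugating enzyme of the anaphase-promoting complex (ENSG00000175063, chr20:45812576-45816957, + strand), had 148 and 134 TPM with lenvatinib, 199 and 211 TPM with WWL70 and 103 and 89.5 TPM with the combination, against 213 and 229 TPM in Hep3B controls. Pairs were tight and the 4 groups did not overlap. UBE2C fell with the combination (log2 fold change -1.19 ± 0.15 (SE), limma adjusted p = 0.00303), and it had 201 and 172 TPM in resistant Huh7 cells, against 314 and 277 TPM in Huh7 controls and fell (log2 fold change -0.66 ± 0.15 (SE), limma adjusted p = 0.0161). CDC20, the activator of that complex, had 85 and 75.2 TPM with lenvatinib, 99.5 and 108 TPM with WWL70 and 69.7 and 56 TPM with the combination, against 118 and 118 TPM in Hep3B controls. CDC20 fell with the combination (log2 fold change -0.91 ± 0.16 (SE), limma adjusted p = 0.0132). Its level was 166 and 157 TPM in resistant Huh7 cells, against 253 and 214 TPM in Huh7 controls, just outside the threshold (limma adjusted p = 0.055).

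PTTG1 (securin), which holds separase inactive until anaphase, had 82.5 and 61.5 TPM with lenvatinib, 128 and 130 TPM with WWL70 and 72.9 and 45.7 TPM with the combination, against 119 and 130 TPM in Hep3B controls. In both the lenvatinib and the combination group B1 was the lower library. PTTG1 fell with the combination (log2 fold change -1.09 ± 0.24 (SE), limma adjusted p = 0.0286) and had 202 and 153 TPM in resistant Huh7 cells, against 300 and 291 TPM in Huh7 controls (limma adjusted p = 0.064). BUB1B (BubR1), a checkpoint pseudokinase, had 70.6 and 79.5 TPM with lenvatinib, 107 and 116 TPM with WWL70 and 18.1 and 60.3 TPM with the combination, against 120 and 124 TPM in Hep3B controls. Here A1 of the combination was far below B1, and the fall was just inside the threshold (log2 fold change -1.85 ± 0.45 (SE), limma adjusted p = 0.0382). BUB1B had 26 and 40.9 TPM in resistant Huh7 cells, against 84.4 and 85.9 TPM in Huh7 controls, which did not overlap and did not pass (limma adjusted p = 0.0667). TTK (MPS1), the upstream checkpoint kinase, had 23.3 and 31.9 TPM with lenvatinib, 52 and 49.2 TPM with WWL70 and 6.23 and 27.3 TPM with the combination, against 53 and 57.7 TPM in Hep3B controls, and fell with the combination (log2 fold change -1.97 ± 0.51 (SE), limma adjusted p = 0.0463). The resistant group had 19.3 and 25.1 TPM against 54 and 53.1 TPM in Huh7 controls, and the adjusted p was 0.131 by limma. The checkpoint kinase BUB1 fell in both settings, averaging 19.1 ± 12.3 TPM with the combination, against 72.1 ± 6.74 TPM in Hep3B controls (limma adjusted p = 0.0147) and 42.6 ± 11 TPM in resistant Huh7 cells, against 104 ± 1.73 TPM in Huh7 controls (limma adjusted p = 0.0411). CDCA3, which triggers degradation of the CDK1 inhibitor WEE1, fell by 0.94 on the log2 scale with the combination (limma adjusted p = 0.00874) and by 0.54 in resistant cells (limma adjusted p = 0.0402).

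Of the 8 mitotic kinesins, 5 fell with the combination and 1 in resistant cells. KIF20A (MKLP2), a motor of cytokinesis (ENSG00000112984, chr5:138178719-138187715, + strand), had 37.2 and 36.8 TPM with lenvatinib, 62 and 56.4 TPM with WWL70 and 10.9 and 23.5 TPM with the combination, against 67.1 and 67.8 TPM in Hep3B controls. The lenvatinib pair nearly coincided, while combination A1 was under B1 and both were under lenvatinib. KIF20A fell with the combination (log2 fold change -2.00 ± 0.29 (SE), limma adjusted p = 0.00556). It had 44.9 and 53.1 TPM in resistant Huh7 cells, against 94.1 and 86.8 TPM in Huh7 controls (limma adjusted p = 0.0697). KIF11 (Eg5), the motor that separates the poles, had 22.8 and 25 TPM with lenvatinib, 35.3 and 36.3 TPM with WWL70 and 9.29 and 26 TPM with the combination, against 37.3 and 35.5 TPM in Hep3B controls. Combination B1 was slightly above the lenvatinib libraries and A1 far below them, and the change did not pass (log2 fold change -1.17 ± 0.37 (SE), limma adjusted p = 0.0831). KIF11 had 19.5 and 23.4 TPM in resistant Huh7 cells, against 49.6 and 47.8 TPM in Huh7 controls, where the pairs were tight and far apart, with an adjusted p of 0.0604 by limma. KIF2C (MCAK), a microtubule depolymerase at centromeres, fell in both, averaging 22.5 ± 7.95 TPM with the combination, against 73.9 ± 5.28 TPM in Hep3B controls (limma adjusted p = 0.00381) and 53.7 ± 6.03 TPM in resistant Huh7 cells, against 110 ± 4.88 TPM in Huh7 controls (limma adjusted p = 0.0145). KIF18A, KIF4A and KIF14 also fell with the combination, with log2 fold changes of -1.86, -1.38 and -2.54. KIF23 and KIF20B did not pass there, at -1.60 and -2.18, and over all 8 motors the median was -1.78 with the combination, -0.81 with lenvatinib and -1.01 in resistant cells.

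At the centromere and kinetochore, 4 of 7 genes fell with the combination and 5 in resistant cells. CENPA, the centromeric histone, had 12.7 and 9.42 TPM with lenvatinib, 20.2 and 20.5 TPM with WWL70 and 7.51 and 6.17 TPM with the combination, against 18.1 and 20.6 TPM in Hep3B controls. CENPA fell with the combination (log2 fold change -1.38 ± 0.21 (SE), limma adjusted p = 0.00721), and it had 14.8 and 14.3 TPM in resistant Huh7 cells, against 26.9 and 23.4 TPM in Huh7 controls, also a fall (log2 fold change -0.75 ± 0.21 (SE), limma adjusted p = 0.0409). The NDC80 complex, which binds microtubules at the kinetochore, has 4 subunits, NDC80, NUF2, SPC24 and SPC25, and all 4 fell in resistant cells. NDC80 itself had 40.3 and 35.4 TPM in resistant Huh7 cells, against 80.9 and 74.5 TPM in Huh7 controls (log2 fold change -1.02 ± 0.26 (SE), limma adjusted p = 0.0266). NUF2 averaged 15.2 ± 0.844 TPM in resistant Huh7 cells, against 34 ± 0.373 TPM in Huh7 controls (log2 fold change -1.11 ± 0.25 (SE), limma adjusted p = 0.0151). SPC25 (ENSG00000152253, chr2:168834132-168913371, - strand) had 19.5 and 17.2 TPM in resistant Huh7 cells, against 42.9 and 43.2 TPM in Huh7 controls, and the controls were more than 2 times either resistant library (log2 fold change -1.19 ± 0.19 (SE), limma adjusted p = 0.00234). SPC24 (ENSG00000161888, chr19:11131520-11155808, - strand) had 10.5 and 6.67 TPM in resistant Huh7 cells, against 24 and 28.9 TPM in Huh7 controls, again without overlap (log2 fold change -1.54 ± 0.32 (SE), limma adjusted p = 0.0101).

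In Hep3B 3 of the 4 subunits fell with the combination. NDC80 had 17.4 and 19 TPM with lenvatinib, 32.3 and 33.2 TPM with WWL70 and 7.58 and 14.5 TPM with the combination, against 34.9 and 31.1 TPM in Hep3B controls, and fell with the combination (log2 fold change -1.56 ± 0.26 (SE), limma adjusted p = 0.0097). NUF2 averaged 10.8 ± 4.51 TPM with the combination, against 30.9 ± 0.74 TPM in Hep3B controls, and fell (log2 fold change -1.49 ± 0.25 (SE), limma adjusted p = 0.00967). SPC25 had 17.2 and 13.9 TPM with lenvatinib, 21.2 and 23.3 TPM with WWL70 and 13.1 and 14.4 TPM with the combination, against 25.5 and 25.1 TPM in Hep3B controls, and its fall was smaller (log2 fold change -0.83 ± 0.19 (SE), limma adjusted p = 0.0292). SPC24 had 26.3 and 19.6 TPM with lenvatinib, 19.5 and 26.9 TPM with WWL70 and 19.7 and 12.4 TPM with the combination, against 20.3 and 27 TPM in Hep3B controls. The lenvatinib pair of SPC24 overlapped the control pair, and the combination did not pass (log2 fold change -0.55 ± 0.32 (SE), limma adjusted p = 0.243, 95% interval -1.28 to 0.17). The resistance effect on SPC24 was lower than the lenvatinib effect by 1.50, with an adjusted p of 0.102 by limma, which is not past the threshold.

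CENPE, a kinetochore motor with a long transcript, had 7.78 and 12.8 TPM with lenvatinib, 25.3 and 25 TPM with WWL70 and 1.6 and 11.9 TPM with the combination, against 26.3 and 26.2 TPM in Hep3B controls. CENPF, a kinetochore and matrix protein, had 37.9 and 65.7 TPM with lenvatinib, 78.9 and 81.6 TPM with WWL70 and 10.9 and 48.4 TPM with the combination, against 96.4 and 89.6 TPM in Hep3B controls. In both genes combination A1 was several times under B1, and neither change passed (log2 fold change -2.23 ± 0.64 (SE), limma adjusted p = 0.0624 for CENPE and log2 fold change -1.96 ± 0.58 (SE), limma adjusted p = 0.0677 for CENPF). In resistant cells CENPE had 6.12 and 13.1 TPM against 33 and 32.4 TPM in Huh7 controls, and CENPF had 16.1 and 29.8 TPM against 56.1 and 57 TPM. All these resistant libraries were below control and A1 was again the lower, with adjusted p of 0.0942 and 0.154 by limma.

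Of the 12 spindle and cytokinesis genes, 9 fell with the combination and 2 in resistant cells. TPX2, which activates AURKA on the spindle and was among the most abundant members, averaged 98.6 ± 56.5 TPM with the combination, against 320 ± 3.23 TPM in Hep3B controls (limma adjusted p = 0.0116). PRC1, the midzone bundling protein, averaged 74.5 ± 27 TPM with the combination, against 203 ± 7.53 TPM in Hep3B controls (limma adjusted p = 0.00833). HMMR, DLGAP5, GTSE1, NUSAP1, ASPM and CKAP2L fell with the combination, with log2 fold changes from -2.60 for ASPM to -1.36 for NUSAP1. ECT2, the exchange factor that starts the cleavage furrow, fell in both settings, with -1.69 in the combination (limma adjusted p = 0.0302) and -1.44 in resistant cells (limma adjusted p = 0.0294). DLGAP5, a spindle assembly factor, had -1.12 in resistant cells (limma adjusted p = 0.033). RACGAP1, ANLN and CKAP2 did not pass in either comparison, and their combination values were -1.35, -2.10 and -1.38.

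TOP2A, the topoisomerase that untangles sister chromatids (ENSG00000131747, chr17:40388516-40417950, - strand), had 124 and 167 TPM with lenvatinib, 290 and 297 TPM with WWL70 and 40.6 and 138 TPM with the combination, against 281 and 275 TPM in Hep3B controls. WWL70 and control libraries were close, and combination A1 was the lowest of all. TOP2A fell with the combination (log2 fold change -1.87 ± 0.46 (SE), limma adjusted p = 0.0402), and it had 90.4 and 137 TPM in resistant Huh7 cells, against 258 and 261 TPM in Huh7 controls (limma adjusted p = 0.107). MKI67, the Ki-67 proliferation mark, had 26.5 and 44.8 TPM with lenvatinib, 68.9 and 70 TPM with WWL70 and 8.39 and 34.8 TPM with the combination, against 72.7 and 72.5 TPM in Hep3B controls. Lenvatinib and combination libraries were all below the controls, but their A1 to B1 gap was wide and the change did not pass (log2 fold change -2.01 ± 0.56 (SE), limma adjusted p = 0.0594). MKI67 had 37 and 76.2 TPM in resistant Huh7 cells, against 126 and 133 TPM in Huh7 controls (limma adjusted p = 0.163).

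The 2 transcription factors had the medians nearest 0 of the 8 roles, at -0.17 under lenvatinib, -0.63 under the combination and -0.08 in resistant Huh7. FOXM1 (ENSG00000111206, chr12:2857681-2877155, - strand) had 99.1 and 103 TPM with lenvatinib, 110 and 120 TPM with WWL70 and 53.2 and 73.9 TPM with the combination, against 120 and 126 TPM in Hep3B controls. FOXM1 fell with the combination (log2 fold change -0.96 ± 0.18 (SE), limma adjusted p = 0.0144), and the lenvatinib libraries were below control by little (limma adjusted p = 0.594). Its level was 92.4 and 106 TPM in resistant Huh7 cells, against 143 and 137 TPM in Huh7 controls (limma adjusted p = 0.0885). MYBL2 (ENSG00000101057, chr20:43667019-43716496, + strand) had 128 and 109 TPM with lenvatinib, 90.6 and 111 TPM with WWL70 and 112 and 88.1 TPM with the combination, against 120 and 126 TPM in Hep3B controls. The lenvatinib and control ranges overlapped, and the combination did not pass (log2 fold change -0.30 ± 0.20 (SE), limma adjusted p = 0.287, 95% interval -0.75 to 0.14). MYBL2 had 258 and 194 TPM in resistant Huh7 cells, against 181 and 176 TPM in Huh7 controls. It was the only member with both resistant libraries above both controls (31% of all tested genes were), and this did not pass either (log2 fold change 0.33 ± 0.20 (SE), limma adjusted p = 0.303, interval -0.12 to 0.77).

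WWL70 alone, at the same 20 µM as lenvatinib alone, moved no member past the threshold, where 0.00733% of all tested genes fell and 0.00733% rose. At an unadjusted limma p under 0.05 there were 0 of the 54, where 392 of all 13645 tested genes had such a p. The median member change was -0.06, and single changes ran from -0.29 for MYBL2 to 0.32 for PBK. Both WWL70 libraries were below both controls for 25 genes (26.3% of all tested genes were) and above both for 6 (21.6%). The 95% intervals lay within 1 log2 unit of 0 for 39 of the 54 genes and within 0.5 for 4, so a change of 1 unit is not outside the interval of the other 15 genes. PLK1, for example, had 118 and 123 TPM with WWL70 against 137 and 141 TPM in Hep3B controls, an interval of -0.63 to 0.22.

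Adding WWL70 to lenvatinib was read from the combination against lenvatinib alone, although the lenvatinib dose in the combination is not given and may differ. No member passed the threshold, where 0% of all tested genes fell. At an unadjusted limma p under 0.05, 27 of the 54 were lower, where 1518 of all 13645 tested genes had such a p in either direction. All 54 estimates were below 0, with a median of -0.82 beside -0.29 for all tested genes. Both combination libraries lay below both lenvatinib libraries for 33 genes, where 23.4% of all tested genes did. CDC25C had a change of -0.82 (unadjusted 95% interval -1.31 to -0.33) and PLK1 of -0.83 (-1.26 to -0.40). The ratio of combination to lenvatinib had a median of 0.414 over the 54 genes in A1 libraries and 0.751 in B1 libraries. Without combination A1 the median was -0.33 and still no member passed, and without combination B1 it was -1.30 and 43 passed, where 47.6% of all tested genes fell. The interaction of the compounds, that is the combination against WWL70 minus lenvatinib against control, also had no member past the threshold, where 0% of all tested genes were lower. Its median was -0.76 beside -0.28. Of the 54, 12 had an unadjusted limma p under 0.05, where 698 of all 13645 tested genes did in either direction. Against WWL70 alone, the combination lowered 34 of the 54, where 5.52% of all tested genes fell, led by CCNB2 (log2 fold change -1.32 ± 0.14 (SE), limma adjusted p = 0.0019), CDC25B (log2 fold change -1.37 ± 0.15 (SE), limma adjusted p = 0.0019) and CDC25C (log2 fold change -1.72 ± 0.22 (SE), limma adjusted p = 0.00356). Both combination libraries lay below both WWL70 libraries for 52 genes, where 39.4% of all tested genes did. The count of 34 was 3 without either WWL70 library, where 0.412% to 0.778% of all tested genes fell, 49 without combination B1, where 48.8% did, and 19 to 21 without a control library of either line or lenvatinib A1, where 2.42% to 2.83% did.

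The lenvatinib-resistant Huh7 cells and the lenvatinib-treated Hep3B cells were set against each other through the difference of their effects. None of the 54 passed the threshold, where 5.08% of all tested genes were higher and 1.22% lower in that difference. By limma 1 member was higher and 2 were lower at an unadjusted p under 0.05. Of all 13645 tested genes, 2373 had such a p in either direction, so nothing is read from these counts. The median difference was -0.19 beside 0.01 for all tested genes. CDC25B was the 1 higher gene, and AURKB (-0.78, 95% interval -1.42 to -0.14) and SPC24 (-1.50, -2.52 to -0.47) were the 2 lower genes, named here after their values were seen. The count past the threshold depended on which libraries were in the fit. The line, the drug schedule and the selection of resistant cells all differ between these effects and cannot be told apart. The combination in Hep3B and resistance in Huh7 share no control library, and 15 genes fell in both, which is 38.5% of the combination's 39 and 78.9% of the resistant cells' 19. Of all 54 members, 72.2% fell with the combination and 35.2% in resistant cells, and nothing is read from the overlap beside these shares. AURKB, CKS2, PBK and SPC24 were called in resistant cells and not with the combination, a difference that was not tested.

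Between the control groups, of the 54, 11 were higher in Huh7 controls, where 13.3% of all tested genes were, and 2 lower, where 21.1% were. The median was 0.41 beside -0.16 for all tested genes, and with median-ratio scaling 22 were higher and 1 lower, where 17.6% and 18.1% of all tested genes were. PBK had 68.3 and 66.2 TPM in Huh7 controls, against 14.6 and 11.9 TPM in Hep3B controls (log2 fold change 2.27 ± 0.24 (SE), limma adjusted p = 0.00012). CDC20 had 253 and 214 TPM in Huh7 controls, against 118 and 118 TPM in Hep3B controls (log2 fold change 0.97 ± 0.16 (SE), limma adjusted p = 0.00168). PTTG1 had 300 and 291 TPM in Huh7 controls, against 119 and 130 TPM in Hep3B controls (log2 fold change 1.24 ± 0.24 (SE), limma adjusted p = 0.00387). None of these 3 pairs overlapped, and each of the 3 passed in all 12 fits that left out 1 library. CDCA3, NDC80, AURKB, SPC25, AURKA, CCNB1, CKS1B and CDCA8 were higher by 0.60 to 1.21 on the log2 scale. CCNB2 was lower, at 110 and 104 TPM in Huh7 controls, against 153 and 150 TPM in Hep3B controls (log2 fold change -0.50 ± 0.14 (SE), limma adjusted p = 0.0253), and NEK2 was lower, averaging 45.1 ± 4.22 TPM against 95.6 ± 11.8 TPM in Hep3B controls (log2 fold change -1.06 ± 0.35 (SE), limma adjusted p = 0.0438). The count of 13 was 3 or 5 without a Huh7 control library, 4 without a Hep3B control library and 30 without a combination library, where 21.5% to 22.1%, 21.6% to 21.8% and 53.9% to 54% of all tested genes passed. The 3 members of highest TPM were CKS1B, TPX2 and UBE2C in Huh7 controls and TPX2, CKS1B and TOP2A in Hep3B controls, and CCNB1 exceeded CCNB2 by much in Huh7 controls and by little in Hep3B controls, in TPM.

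The 2 libraries of a group did not agree equally well. The median absolute A1 to B1 difference over the members was 1.05 on the log2 scale in the combination, 0.28 in resistant cells and 0.21 with lenvatinib, 0.08 with WWL70, and 0.07 and 0.08 in the Huh7 and Hep3B controls. The change in A1 went with transcript length, taken as the longest annotated transcript. Across the 54 genes, Spearman's rho between length and the change from control was -0.75 in combination A1, -0.71 in lenvatinib A1 and -0.69 in resistant A1, and -0.05, -0.03 and -0.03 in the B1 libraries of those groups. Over 13573 genes with a length, rho was -0.52, -0.34 and -0.30 in A1 and 0.00, 0.04 and 0.06 in B1. Genes are not independent points and share a library in each value, so no p is given.

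**Figure D5:**
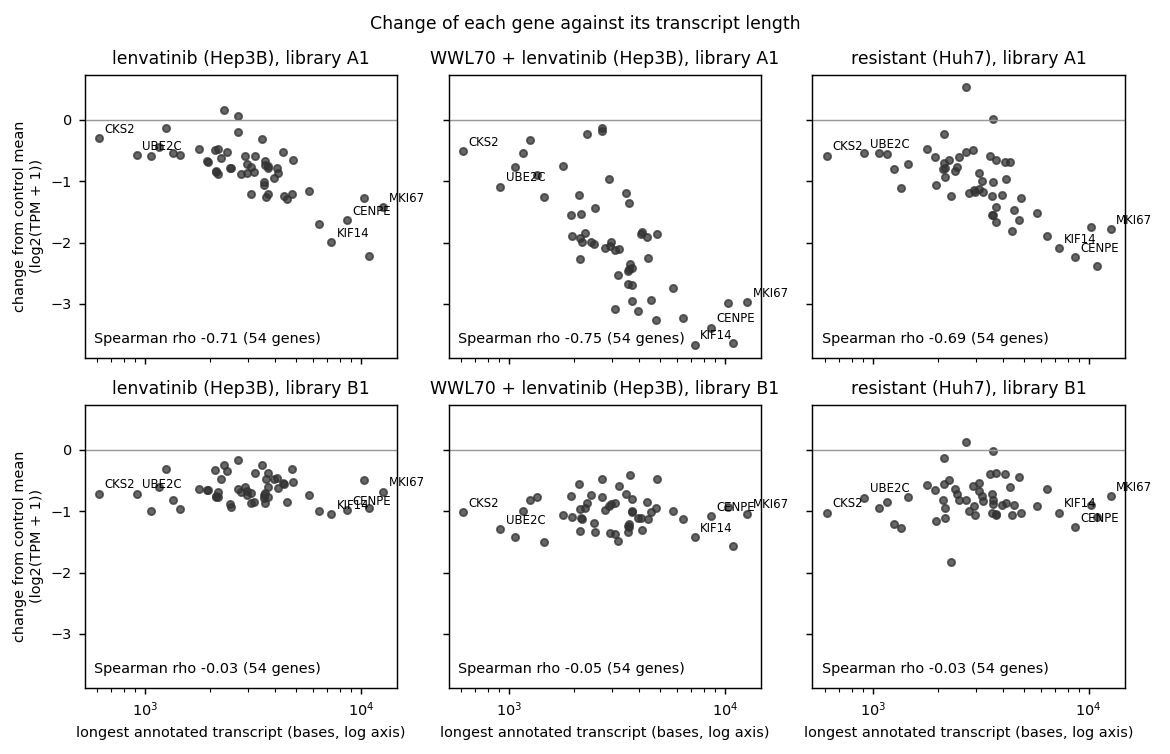
Change of each of the 54 genes from the control mean, on the log2(TPM + 1) scale, against the length of its longest annotated transcript in bases (log axis), for A1 libraries above and B1 libraries below. Points slope downwards in the 3 A1 panels, with rho of -0.71, -0.75 and -0.69, and lie flat in the 3 B1 panels, all or nearly all below 0.

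In combination A1 the 23 members with transcripts of at least 3500 bases had a median change of -2.69 and the 15 under 2200 bases one of -1.22, while in B1 the medians were -1.08 and -1.06. KIF14, with a transcript of 7274 bases, had 1.77 TPM in A1 and 12.1 TPM in B1, against 35 and 33.5 TPM in Hep3B controls. CKS2, with 613 bases, had 121 TPM in A1 and 84.8 TPM in B1, against 174 and 171 TPM. In the B1 libraries alone, all 54 members were below the control mean with lenvatinib and with the combination, and 53 in resistant cells, with medians of -0.68, -1.01 and -0.83. The medians of all tested genes in these B1 libraries were -0.03, -0.08 and 0.0. With a correction of each library for its trend on length, 17 members fell under lenvatinib, 50 under the combination and 41 in resistant Huh7, where 2.7%, 8.13% and 12.1% of all genes fell. With the A1 libraries of these 3 groups left out, the counts were 49, 54 and 51, where 12%, 17.7% and 23.3% fell.

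Other genes of the mitotic machinery were listed by role as well. Of 42 other mitotic entry and spindle genes, 16 fell with the combination, 12 in resistant cells and 0 with lenvatinib, with medians of -1.03, -0.74 and -0.43. Of all tested genes 6.41%, 6.63% and 1.1% fell in these comparisons, shares that hold for the lists that follow too. The medians of all tested genes were -0.34, -0.06 and -0.07. SPAG5 (astrin), a spindle and kinetochore protein, had 33.3 and 43.8 TPM with the combination, against 86.4 and 84.6 TPM in Hep3B controls (log2 fold change -1.14 ± 0.16 (SE), limma adjusted p = 0.00428). PIMREG, a mitotic regulator, had 22.3 and 16.3 TPM in resistant Huh7 cells, against 62.5 and 64.8 TPM in Huh7 controls (log2 fold change -1.69 ± 0.21 (SE), limma adjusted p = 0.000615). It was the 1 gene of this list whose resistance effect was lower than the lenvatinib effect past the threshold (-1.42, limma adjusted p = 0.0232). Of all tested genes 1.22% were lower in that difference. Of 36 other kinetochore and checkpoint genes, 9 fell with the combination and 7 in resistant cells. HJURP, the chaperone that loads CENPA, had 14.6 and 33.7 TPM with the combination, against 67.8 and 72.6 TPM in Hep3B controls (log2 fold change -1.61 ± 0.32 (SE), limma adjusted p = 0.0192). MAD2L1 (MAD2), a core checkpoint protein, had 44.4 and 34.8 TPM in resistant Huh7 cells, against 90.1 and 85.9 TPM in Huh7 controls (log2 fold change -1.14 ± 0.19 (SE), limma adjusted p = 0.00282). Of 20 condensin and cohesin genes, 4 fell in each of these comparisons, among them CDCA5 (sororin), with 33.2 and 39 TPM in resistant Huh7 cells against 64.4 and 63.9 TPM in Huh7 controls (log2 fold change -0.82 ± 0.16 (SE), limma adjusted p = 0.00669). Of 17 subunits and regulators of the anaphase-promoting complex other than members, none passed in either direction with lenvatinib, the combination or in resistant cells, with medians of -0.13, -0.20 and -0.29. The combination median of this list was not below the -0.34 of all tested genes. Of 15 DREAM, MuvB and NF-Y genes, none passed with lenvatinib or the combination and 1, E2F5, fell in resistant cells, at 9.62 and 14.4 TPM against 40.5 and 38.7 TPM in Huh7 controls (log2 fold change -1.67 ± 0.26 (SE), limma adjusted p = 0.00228). The median of these 15 was -0.11 under lenvatinib, beside -0.07 for all tested genes. Under the combination it was -0.89 beside -0.34, and 5 were lower at an unadjusted limma p under 0.05. Resistant Huh7 had a median of -0.56 beside -0.06, and 1 was lower at that unadjusted p. Of all 13645 tested genes, 4347 and 4247 had such a p in these comparisons, in either direction, so nothing is read from the 2 counts. In each of the last 2 comparisons 13 of the 15 estimates were below 0. The share of all tested genes below 0 was not counted, and their medians were below 0 too, so nothing is read from this.

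Of 28 DNA replication and S-phase genes, which act before G2, none passed with lenvatinib or with the combination. Their medians were 0.08 and -0.27, beside -0.07 and -0.34 for all tested genes. In resistant cells 14 of them fell, where 6.63% of all tested genes did, and their median was -0.95 beside -0.06. PCNA, the sliding clamp, had 311 and 263 TPM with lenvatinib and 271 and 273 TPM with the combination, against 262 and 256 TPM in Hep3B controls. It had 274 and 233 TPM in resistant Huh7 cells, against 459 and 443 TPM in Huh7 controls (log2 fold change -0.83 ± 0.14 (SE), limma adjusted p = 0.0035). MCM7, a helicase subunit, had 250 and 200 TPM with lenvatinib and 199 and 170 TPM with the combination, against 230 and 218 TPM in Hep3B controls, and it had 291 and 258 TPM in resistant Huh7 cells, against 565 and 543 TPM in Huh7 controls (log2 fold change -1.01 ± 0.16 (SE), limma adjusted p = 0.00214). The resistance effect was lower than the lenvatinib effect past the threshold for 5 of the 28, where 1.22% of all tested genes were lower. Among the 5 were PCNA (-0.98, limma adjusted p = 0.0208), MCM7 (-1.01, limma adjusted p = 0.0287), MCM3 (-1.01, limma adjusted p = 0.0255) and the G1/S cyclin CCNE1 (-1.41, limma adjusted p = 0.0199). For PCNA and MCM7 the resistant libraries lay below both Huh7 controls. In Hep3B the 4 PCNA values with lenvatinib and the combination all lay above both controls, the lenvatinib values of MCM7 lay on either side of the controls and the combination values of MCM7 lay below both, none of them past the threshold.

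Among 10 tested D cyclins, CDK inhibitors and RB1, the inhibitors moved in different directions. CDKN2B (p15) had 4.15 and 3.85 TPM with lenvatinib, 22.2 and 18.8 TPM with WWL70 and 1.88 and 6.33 TPM with the combination, against 41.5 and 43.5 TPM in Hep3B controls. It fell with lenvatinib (log2 fold change -3.12 ± 0.41 (SE), limma adjusted p = 0.00858) and with the combination (log2 fold change -3.24 ± 0.41 (SE), limma adjusted p = 0.00303). Its neighbour CDKN2A fell with both as well (limma adjusted p = 0.00987 and 0.00176). CDKN2A had 151 and 133 TPM with lenvatinib, 251 and 218 TPM with WWL70 and 131 and 103 TPM with the combination, against 303 and 354 TPM in Hep3B controls. The WWL70 values of both genes lay below both controls, though no gene of this list passed the threshold with WWL70. CDKN1C (p57) had 294 and 178 TPM with the combination, against 85.5 and 72.4 TPM in Hep3B controls, a rise (log2 fold change 1.53 ± 0.26 (SE), limma adjusted p = 0.0107). In resistant Huh7 CDKN1C rose as well, at low levels of 3.7 and 3.05 TPM against 1.5 and 1.07 TPM in Huh7 controls (limma adjusted p = 0.0368). CDKN2A fell there too, at 46.4 and 47.3 TPM against 73.3 and 72.4 TPM in Huh7 controls (limma adjusted p = 0.031). CDKN1A (p21) had 23.2 and 17.2 TPM in resistant Huh7 cells, against 3.92 and 3.81 TPM in Huh7 controls, also a rise (log2 fold change 2.11 ± 0.26 (SE), limma adjusted p = 0.000623). RB1 mRNA was near 0 in Hep3B, a line known to lack functional RB1, at 0.318 to 1.67 TPM, against 24.3 to 45.7 TPM in Huh7.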

How the data were processed

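RNA of 12 libraries was measured by sequencing. The TPM values, as deposited, cover 20307 Ensembl identifiers in a single table, and each library sums to 1000000. Reads were trimmed with fastp 0.18.0 and the build was hg38, per the submitters' processing notes. Which aligner, quantifier or gene models were used is not given in the sources used here. Symbols and coordinates came from GENCODE release 29 (GRCh38), promoter sequences from RefSeq (GRCh38).

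Genes with at least 1 TPM in at least 2 libraries were tested on log2(TPM + 1), with a pseudocount of 1, by limma 3.58.1 in R 4.3.3. The fit had 1 mean per group over all 12 libraries, an intensity trend and Benjamini-Hochberg adjustment over all 13645 genes in each of 9 comparisons. The fold changes are on that scale and understate changes of low genes. The fit was tested on simulated data in which every library had the spread of the Hep3B controls. That setting held no outlying library and no trend on length, so it does not cover the combination pair. TPM keeps no depth, so no counting error can be given.

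The members and lists were chosen with earlier results of these data known. Values in every library are given for 27 listed members and for the 3 smallest adjusted p in a comparison, and up to 4 called genes come from each other list. The alternatives were other pseudocounts, filters and scalings, a fit without trend, robust or weighted fits, each cell line alone, a replicate block, a correction for transcript length, stricter thresholds, and leaving out libraries.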

Additional observations from a re-analysis of the deposited data

How the results depend on the processing

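Counts of members past the threshold are given for lenvatinib (2), WWL70 (0), the combination (39), the combination against lenvatinib (0), against WWL70 (34) and its interaction (0), resistant cells (19), the resistance minus the lenvatinib effect (0) and Huh7 against Hep3B controls (13). No gene changed direction among calls, and WWL70 stayed at 0 in every setting. Without a filter the counts were 5 for lenvatinib, 25 for the combination and 1 for the effect difference. Quantile normalization gave 9 for lenvatinib, 34 in resistant cells and 24 between the controls, and median-ratio scaling gave 23 between the controls. Rescaling without the 50 most abundant genes gave 1 for lenvatinib. A fit within each cell line gave 0, 11, 6 and 47 for lenvatinib, the combination, the combination against WWL70 and resistant cells, and can give none for the 2 comparisons across lines. Array weights gave 47, 3, 0, 50, 3 and 38 for lenvatinib, the combination, the combination against WWL70, resistant cells, the effect difference and the controls, where 9.09%, 0.308%, 0.0513% and 15.6% of all tested genes were lower in the first 4 and 14.5% and 69.4% passed in either direction in the other 2. The length correction gave 17, 41, 2 and 29 for lenvatinib, resistant cells, the effect difference and the controls. Together with the replicate block it gave 21, 45, 1 and 33. Leaving out the A1 libraries of lenvatinib, combination and resistant cells gave 49, 1, 52, 51, 9 and 43 for lenvatinib, the combination against lenvatinib, against WWL70, resistant cells, the effect difference and the controls. At an adjusted p under 0.01 the counts were 0, 14, 12, 5 and 6 for lenvatinib, the combination, the combination against WWL70, resistant cells and the controls. With a log2 fold change of at least 1 they were 0 for lenvatinib, 10 in resistant cells and 4 between the controls. Most counts here and in the next paragraph stand without the share of all tested genes in the same setting. Such a count alone cannot tell a change of the members from a general change in calls. The cause of these shifts was not tested.

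The replicate block gave 1 for lenvatinib, 47 for the combination and 21 in resistant cells. The labels do not say what the letters A1 and B1 mark. The A1 minus B1 differences correlated at 0.616 to 0.739 among the lenvatinib, combination and resistant groups and at -0.124 to 0.0671 in the other pairs of groups, so the letters went together in those 3 groups and did not pair them with their controls, and the block is given only here. With 1 library left out, the counts ran from 0 to 40 for lenvatinib, 6 to 49 for the combination, 0 to 43 against lenvatinib, 3 to 49 against WWL70, 0 to 42 for the interaction, 2 to 50 in resistant cells, 0 to 4 for the effect difference and 3 to 30 between the controls. A group left with 1 library is assumed to vary like the others. Depth is unknown, and with 2 libraries a group the standard errors of the combination's log2 fold changes reached 0.67, for ASPM and ANLN.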
